A study of Mus musculus with 15 samples.

Results

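The meibomian lipid synthesis genes Awat2, Elovl3, Scd1, Scd3, Soat1, Far2, Fasn, Pparg, Mc5r and Dgat2 were followed across 15 RNA-Seq libraries of mouse conjunctival tissue. The genes were taken by symbol, and all 10 were found among the 55487 genes listed. The libraries came from WT female BALB/c mice 9 to 12 weeks of age, 5 per group. In all 3 groups the skin of the ear had been treated with MC903 (calcipotriol, a vitamin D analog that inflames skin; 2.5 nmol per day for 7 days) together with OVA. From day 18 to day 24 the eyes then received PBS (PBS group, no antibody named) or OVA. OVA-challenged mice had been injected i.p. with an isotype control antibody (isotype group) or with REGN1103, a mouse surrogate of dupilumab that blocks the IL-4 receptor α chain (anti–IL-4Rα group). The dose of either antibody was 25 mg/kg. No antibody control was named for the PBS group, so the isotype and PBS groups differed in both the challenge and the antibody. No source said which libraries, if any, shared a mouse. If libraries of a group were not from separate animals, p-values measured technical spread only.

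Meibomian glands are modified sebaceous glands of the eyelid margin whose cells fill with lipid, burst and release meibum, the oil that covers the tear film and slows its evaporation. Meibum is rich in wax esters and cholesteryl esters. Its synthesis runs from new fatty acids (Fasn) through desaturation (Scd1, Scd3) and elongation (Elovl3) to reduction into fatty alcohols (Far2) and esterification (Awat2, Soat1, Dgat2). Pparg, a nuclear receptor, drives lipid cell differentiation, and Mc5r, the melanocortin 5 receptor, is needed for normal secretion of sebaceous and other exocrine glands. Several of these genes, among them Pparg, Fasn, Scd1 and Dgat2, are also expressed in fat cells. The Harderian gland, a lipid-secreting gland behind the rodent eye, shares part of the same pathway.

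The libraries held 48622246 to 87745024 counts. A list of 8 meibomian and sebaceous markers outside the 10 genes, among them Elovl4 (an elongase of very long fatty acids), Krt79 (a keratin of sebaceous ducts) and Awat1 (a wax synthase of sebaceous glands), summed to 3803–5912 CPM (counts scaled to a common library size with TMM factors) in the PBS group, 3177–5951 in the isotype group and 4477–5996 in the anti–IL-4Rα group. Transcripts of these markers were therefore present in every library. The sum rested largely on Krt79 (mean 1662 CPM) and Elovl4 (mean 1493 CPM), and a list sum in bulk tissue does not name a cell type. Genes listed for other tissues were present too. A list of 8 epithelial keratins and markers summed to 13933–23261 CPM, 7 skeletal muscle genes to 3596–10485 CPM, 7 hair follicle genes to 584–10097 CPM and 10 white adipocyte genes to 470–1516 CPM. A list of 8 lacrimal acinar genes varied most, from 117 to 164010 CPM. In bulk tissue, fewer cells of a type and less RNA per cell cannot be told apart. In lipid genes 1 library of each group was picked by rule, as the highest of its group in a summed level. The sum was over 10 genes for ether lipid and porphyrin synthesis that the Harderian gland uses. Anti–IL-4Rα replicate 2, isotype replicate 4 and PBS replicate 4 were highest (1882, 1076 and 978 CPM, against 574–876 CPM in the other 12 libraries). The next libraries of these groups were at 832, 851 and 876 CPM, so PBS replicate 4 stood little apart. In addition, isotype replicate 2 had the hair follicle sum of 10097 CPM, against 749–1510 CPM in the rest of its group.

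In the mouse genome (GRCm38, GENCODE M21), Awat2 (ENSMUSG00000031220) lies at chrX:100402221-100442717 and Far2 (ENSMUSG00000030303) at chr6:148047259-148182758. Scd1 (ENSMUSG00000037071, chr19:44394455-44407879), Scd3 (ENSMUSG00000025202, chr19:44203269-44244016) and Elovl3 (ENSMUSG00000038754, chr19:46131897-46135694) share chromosome 19. Soat1 (ENSMUSG00000026600) lies at chr1:156424525-156474331, Fasn (ENSMUSG00000025153) at chr11:120805846-120824547, Pparg (ENSMUSG00000000440) at chr6:115360951-115490399 and Dgat2 (ENSMUSG00000030747) at chr7:99153658-99182719. Mc5r is ENSMUSG00000007480. Scd1 and Scd3 are close paralogs. Reads that could map to both were handled by the unique mapping of the original pipeline, so the split between them is uncertain to that extent.

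The promoter sequences of 5 genes are shown because these genes fell into different patterns among the libraries. They are RefSeq windows of GRCm38.p6, 250 bases before to 50 after the gene start, in gene orientation. Awat2 (chrX:100442668-100442967, minus strand), Far2 (chr6:148047166-148047465, plus strand) and Soat1 (chr1:156474279-156474578, minus strand) varied together. Fasn (chr11:120824498-120824797, minus strand) and Scd3 (chr19:44203038-44203337, plus strand) varied in another way. For Scd3 this rested mainly on isotype replicate 4 and anti–IL-4Rα replicate 2. Capitals mark matches, on either strand, to CCAAT (the CCAAT box), GGGCGG (the GC box), AGGTCA (a nuclear receptor half-site), TATAAA (the TATA box) or CACGTG (an E-box).
Awat2: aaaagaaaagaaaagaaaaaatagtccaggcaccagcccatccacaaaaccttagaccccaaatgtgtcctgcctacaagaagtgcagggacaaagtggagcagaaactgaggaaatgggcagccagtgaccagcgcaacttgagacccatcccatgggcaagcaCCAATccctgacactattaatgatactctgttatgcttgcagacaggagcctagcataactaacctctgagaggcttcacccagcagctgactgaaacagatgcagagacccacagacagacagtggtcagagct
Far2: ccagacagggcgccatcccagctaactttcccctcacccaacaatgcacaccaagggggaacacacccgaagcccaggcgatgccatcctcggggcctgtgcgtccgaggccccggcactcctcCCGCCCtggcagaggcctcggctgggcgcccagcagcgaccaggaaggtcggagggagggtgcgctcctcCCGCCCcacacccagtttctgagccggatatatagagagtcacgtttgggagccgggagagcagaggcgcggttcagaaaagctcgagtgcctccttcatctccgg
Soat1: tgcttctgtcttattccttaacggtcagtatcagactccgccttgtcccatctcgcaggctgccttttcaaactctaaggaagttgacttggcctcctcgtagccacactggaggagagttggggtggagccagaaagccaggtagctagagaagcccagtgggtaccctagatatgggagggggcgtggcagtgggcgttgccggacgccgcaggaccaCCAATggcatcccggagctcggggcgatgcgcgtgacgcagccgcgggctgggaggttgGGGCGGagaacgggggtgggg
Fasn: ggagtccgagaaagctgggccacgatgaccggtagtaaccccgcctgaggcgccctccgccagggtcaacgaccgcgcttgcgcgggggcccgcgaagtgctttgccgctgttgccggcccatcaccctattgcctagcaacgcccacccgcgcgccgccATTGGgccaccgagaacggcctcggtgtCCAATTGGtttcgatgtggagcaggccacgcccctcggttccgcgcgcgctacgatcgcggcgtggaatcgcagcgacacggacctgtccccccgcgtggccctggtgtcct
Scd3: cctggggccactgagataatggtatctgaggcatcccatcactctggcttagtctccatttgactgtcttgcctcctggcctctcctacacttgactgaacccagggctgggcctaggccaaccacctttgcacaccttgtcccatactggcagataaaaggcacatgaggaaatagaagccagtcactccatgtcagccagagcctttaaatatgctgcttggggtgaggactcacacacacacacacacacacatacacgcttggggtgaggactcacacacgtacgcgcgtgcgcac
The Awat2 window shown held 1 CCAAT box at -85 from the start. A second Awat2 window (chrX:100412538-100412837, minus strand) held a CCAAT box at -121 on the opposite strand and a GC box at -70. The Far2 window held 2 GC boxes, at -126 and -56, both on the opposite strand. Soat1 had a CCAAT box at -30 and a GC box at 29. Fasn had 3 CCAAT boxes, at -90, -62 and -59, the last 2 of which overlap on opposite strands. The Scd3 window held none of the 5 motifs. Of 32851 mouse promoter windows of the same length, 37.4% held CCAAT, 35.7% GGGCGG, 16.3% AGGTCA, 13.6% TATAAA and 7.15% CACGTG, so the matches are common letters and a description only. Pparg had 3 windows. AGGTCA was found in 2 of them, at -28 and at -9. No window is shown for Scd1, Elovl3 and Dgat2.

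Per kilobase of exon, the 10 genes spanned a wide range of levels. Scd1 stood highest at 1505 ± 454 CPM per kb (mean ± SD, n = 15 libraries), followed by Awat2 at 376 ± 123, Elovl3 at 194 ± 80.9, Far2 at 144 ± 43.5 and Dgat2 at 110 ± 19.2 CPM per kb. Scd3 (89.3 ± 74.4), Fasn (88.3 ± 59.4) and Soat1 (33.5 ± 9.28) came next, and the regulators Pparg (9.33 ± 3.65) and Mc5r (6.14 ± 2.93 CPM per kb) were lowest. Within libraries the order held closely. Scd1 exceeded Awat2 in 15 of 15 libraries, Awat2 exceeded Elovl3 in 14, Far2 exceeded Dgat2 in 12 and Dgat2 exceeded Scd3 in 12. Scd3 and Fasn could not be ordered, with Scd3 above Fasn in 8 of 15 libraries.

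The wax ester genes Awat2 and Far2 varied between libraries of a group. Their highest library was 2.33 and 2.21 times the lowest in the PBS group, and 3.78 and 3.45 times in the isotype group. In the anti–IL-4Rα group it was 1.31 and 1.23 times, a difference in spread that was not tested. Awat2, the wax ester synthase, was at 746, 535, 1247, 1029 and 574 CPM in PBS replicates 1 to 5, at 1159, 307, 499, 841 and 603 CPM in the isotype group, and at 1035, 899, 900.2, 836 and 790.2 CPM in the anti–IL-4Rα group. The means were 826 ± 305, 682 ± 329 and 892 ± 92.2 CPM (SD, n = 5). All 5 anti–IL-4Rα libraries lay inside the range of the PBS group, and the 3 groups overlapped.

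Far2, which reduces fatty acids to the alcohols of wax esters, followed the same libraries. It was at 994, 709, 1565, 1350.0 and 846 CPM with PBS challenge, 1444, 419, 645, 1116 and 820 CPM in the isotype group, and 1294, 1283, 1149, 1054 and 1109 CPM in the anti–IL-4Rα group (1093 ± 356, 889 ± 402 and 1178 ± 107 CPM). As for Awat2, PBS replicate 3 and isotype replicate 1 were highest and PBS replicate 2 and isotype replicate 2 were lowest. Relative to Awat2, Far2 was nearly fixed. The SD of the log2 ratio of Far2 to Awat2 within groups was 0.08, against 0.49 for log2 CPM of Far2 alone.

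The esterification genes Soat1 and Dgat2 had the same highest and lowest libraries as Awat2 in the PBS and isotype groups, but not the same order in the anti–IL-4Rα group. Soat1, which makes cholesteryl esters, was at 299.8, 202, 453, 369 and 252.2 CPM with PBS challenge, 470.3, 158, 216, 353 and 289 CPM in the isotype group, and 408, 384, 347, 357 and 363 CPM in the anti–IL-4Rα group (315 ± 98.6, 297 ± 122 and 372 ± 24.3 CPM). Dgat2, which makes triglycerides, was at 379, 309.8, 449, 382 and 314 CPM with PBS challenge, 425, 207, 275, 322 and 293 CPM in the isotype group, and 366, 328, 341, 335 and 344 CPM in the anti–IL-4Rα group (367 ± 57.3, 304 ± 79.3 and 343 ± 14.4 CPM). Dgat2 varied least of the 10 genes, with a pooled SD within groups of 0.25 on the log2 scale.

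The desaturases Scd1 and Scd3, which introduce the first double bond into fatty acids, parted from each other in single libraries. Scd1 was at 6822, 4488, 9899, 9894 and 6090 CPM with PBS challenge, 9635, 3121, 4550, 8093 and 5943 CPM in the isotype group, and 8750, 10544, 8007, 7124 and 7468 CPM in the anti–IL-4Rα group (7439 ± 2397, 6269 ± 2628 and 8378 ± 1357 CPM). Scd3 was at 212, 173, 369, 467 and 229 CPM with PBS challenge, 321, 71.8, 125, 506 and 181 CPM in the isotype group, and 269, 1173, 219, 215 and 227 CPM in the anti–IL-4Rα group (290 ± 123, 241 ± 175 and 421 ± 421 CPM). The mean of Scd3 in the anti–IL-4Rα group rested on replicate 2, as the other 4 libraries were at 215–269 CPM. Elovl3, an elongase of saturated and monounsaturated fatty acids in skin glands, was at 307, 221, 483, 405 and 266 CPM with PBS challenge, 511, 181, 264, 498 and 341 CPM in the isotype group, and 400.4, 839.8, 329.9, 330.8 and 372 CPM in the anti–IL-4Rα group (336 ± 107, 359 ± 144 and 455 ± 217 CPM). Replicate 2 of the anti–IL-4Rα group was again far above the other 4.

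Fasn, the fatty acid synthase, was at 886, 674, 802, 1338 and 981 CPM with PBS challenge, 711, 489.6, 629, 1455 and 677 CPM in the isotype group, and 746, 3116, 644, 678 and 681 CPM in the anti–IL-4Rα group (936 ± 251, 792 ± 379.8 and 1173 ± 1087 CPM). In each group the highest library was the one that also had the highest ether lipid and porphyrin gene sum. Pparg was at 25.7, 21.7, 28.8, 34.0 and 23.3 CPM with PBS challenge, 30.5, 13.3, 16.8, 29.4 and 21.2 CPM in the isotype group, and 28.5, 61.4, 26.3, 25.6 and 26.8 CPM in the anti–IL-4Rα group (26.7 ± 4.88, 22.3 ± 7.60 and 33.7 ± 15.5 CPM). Anti–IL-4Rα replicate 2 held over 2 times the Pparg level of any other library of its group. Mc5r was at 18.2, 15.2, 15.7, 35.2 and 26.1 CPM with PBS challenge, 18.5, 15.6, 9.93, 32.9 and 11.4 CPM in the isotype group, and 25.7, 51.2, 16.8, 33.1 and 34.1 CPM in the anti–IL-4Rα group (22.1 ± 8.53, 17.7 ± 9.19 and 32.2 ± 12.7 CPM). Mc5r was the lowest of the 10 genes, and its groups overlapped.

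**Figure D1:**
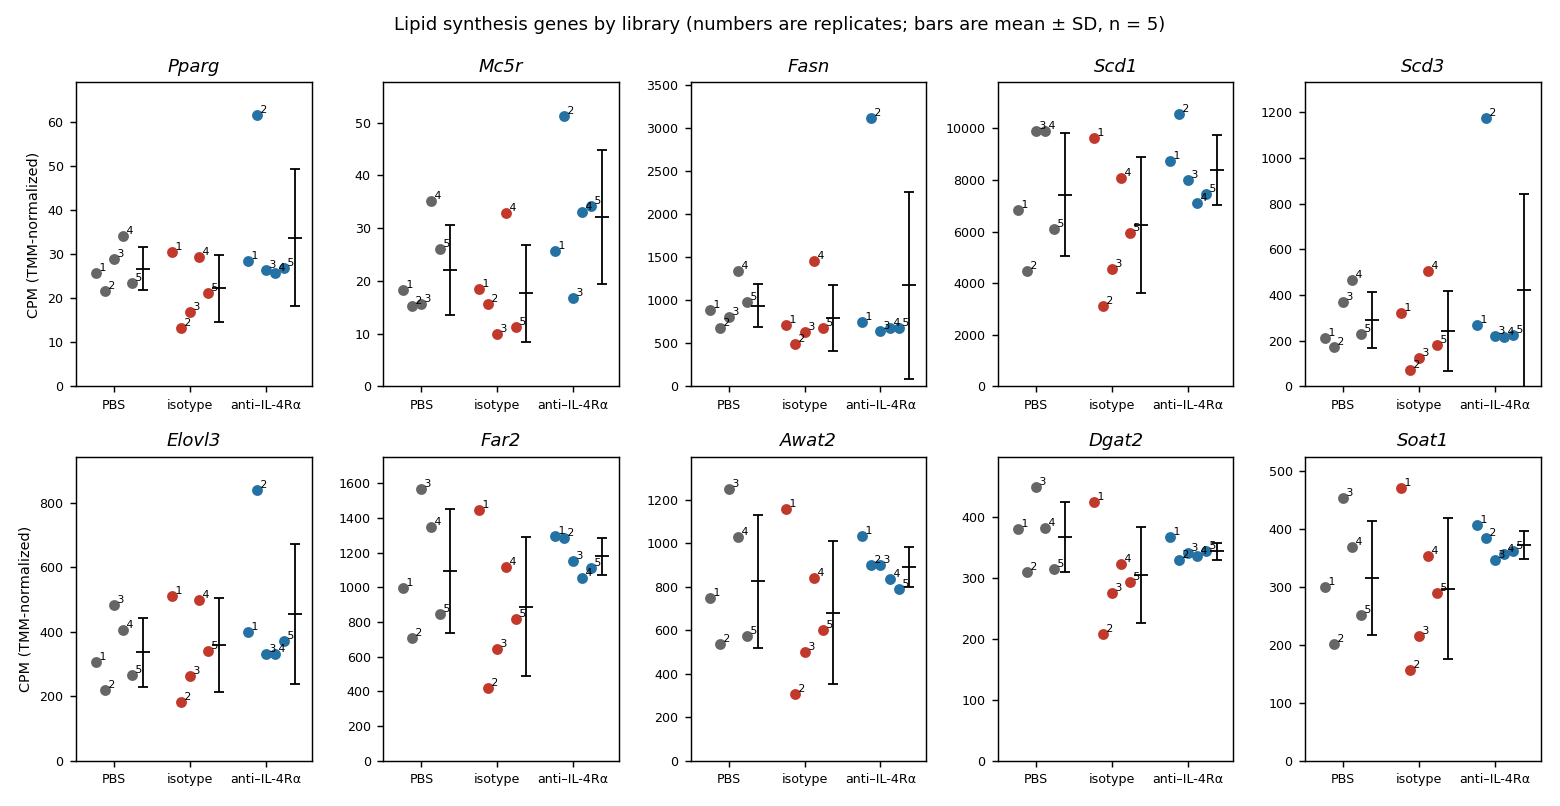
CPM of each of the 10 genes (vertical axes, TMM-normalized, each from 0) in the 5 libraries of each group, with the replicate number beside each point and the mean ± SD as a bar. Anti–IL-4Rα replicate 2 stands above the rest of its group in Scd3 (1173 CPM), Fasn (3116 CPM), Elovl3 (839.8 CPM) and Pparg (61.4 CPM), but not in Awat2 (899 CPM).

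OVA challenge with isotype control was compared with PBS challenge to ask how conjunctival gene expression changed in the conjunctivitis model. None of the 10 genes was called (0 of 10 at an adjusted p under 0.05, edgeR quasi-likelihood test, where 17% of the 19006 genes tested were called, 9.53% higher and 7.49% lower). At an unadjusted p under 0.05 the count was also 0, beside 6188 of the 19006 genes tested. DESeq2, limma's voom and limma on log2(FPKM + 1) called 0 of the 10. The values leaned downward, with 9 of 10 log2 fold changes below 0 and a median of -0.27 (-0.01 over all genes tested). Many of the 10 genes followed the same libraries, so their signs are not independent, here or in the next comparisons. They ran from -0.32 for Mc5r (SE 0.36, adjusted p = 0.568 in edgeR) to 0.09 for Elovl3 (SE 0.33, adjusted p = 0.876 in edgeR). Awat2 was at -0.28 (SE 0.31, adjusted p = 0.566 in edgeR), and its 95% interval allowed folds from 0.524 to 1.30. Scd3 had the widest interval, 0.353-fold to 1.96-fold, and Dgat2 the narrowest, 0.663-fold to 1.04-fold. Dgat2 was at -0.27 (SE 0.15, adjusted p = 0.232 in edgeR). Without isotype replicate 1 it was at -0.42 and passed the threshold (adjusted p = 0.0306 in edgeR). The libraries of the groups overlapped for all 10 genes, where 6.85% of all genes lay wholly higher and 5.43% wholly lower.

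Anti–IL-4Rα treatment was then compared with isotype control in OVA-challenged mice. Again 0 of 10 genes were called, beside 14.9% of all genes tested (6.73% higher and 8.13% lower), and the same count was found with DESeq2, voom and limma on log2(FPKM + 1). All 10 log2 fold changes were above 0, with a median of 0.41 (0.01 over all genes tested), though the genes do not vary independently. Mc5r and Pparg had unadjusted p-values under 0.05, beside 6245 of all 19006 genes tested. Mc5r was at 0.87 (SE 0.36, adjusted p = 0.110 in edgeR), a fold of 1.82 with a 95% interval of 1.07 to 3.10, and Pparg at 0.60 (SE 0.27, adjusted p = 0.143 in edgeR). Without anti–IL-4Rα replicate 2, Pparg was at 0.27 (adjusted p = 0.414 in edgeR). Without isotype replicate 4, Mc5r was at 1.22 and passed the threshold (adjusted p = 0.0280 in edgeR), and without anti–IL-4Rα replicate 2 it was at 0.63 (adjusted p = 0.258 in edgeR). The wax ester genes Awat2 (0.39, SE 0.31) and Far2 (0.41, SE 0.28) and the desaturase Scd1 (0.42, SE 0.28) had adjusted p-values of 0.388, 0.328 and 0.316 in edgeR. Their size depended on the extreme isotype libraries. Without isotype replicate 1, Awat2, Far2 and Scd1 were at 0.67, 0.65 and 0.63. In that fit 7 of the 10 genes had an unadjusted p under 0.05, beside 7011 of all 18971 genes tested, and 0 of the 10 were called. Without isotype replicate 2, Awat2, Far2 and Scd1 were at 0.20, 0.23 and 0.25. There 0 of the 10 genes had an unadjusted p under 0.05, beside 4900 of all 18861 genes tested. Scd3 was at 0.80 (SE 0.58), Fasn at 0.57 (SE 0.45) and Elovl3 at 0.34 (SE 0.33). Without anti–IL-4Rα replicate 2 these 3 values were -0.051, -0.20 and -0.0031, so their direction rested on that library. Soat1 (0.32, SE 0.26) and Dgat2 (0.17, SE 0.15) completed the set, at 0.55 and 0.33 without isotype replicate 1 and at 0.16 and 0.061 without isotype replicate 2. The widest 95% interval, that of Scd3, reached from 0.738-fold to 4.13-fold, and that of Dgat2 from 0.901-fold to 1.41-fold. The summed lacrimal acinar genes also differed in level, at 117–34434 CPM in the isotype group and 1339–164010 CPM in the anti–IL-4Rα group, and their part in these values was not tested. No gene had separate groups, where 2.35% of all genes lay wholly higher and 4.96% wholly lower.

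The anti–IL-4Rα group was also set against the PBS group. Of the 10 genes 0 were called (3.74% of all genes tested, 2.29% higher and 1.45% lower). At an unadjusted p under 0.05 there were 0, beside 4396 of all 19006 genes tested. Of the 10, 9 had log2 fold changes above 0, with a median of 0.28 (-0.00 over all genes tested). The values ran from -0.10 for Dgat2 (SE 0.15) to 0.54 for Mc5r (SE 0.36), with adjusted p-values of 0.385 to 0.873 in edgeR. Without anti–IL-4Rα replicate 2, Scd3 moved from 0.54 to -0.32 and Fasn from 0.33 to -0.45. The widest 95% interval, that of Scd3, reached from 0.615-fold to 3.42-fold. The groups overlapped for all 10 genes, where 2.98% of all genes lay wholly higher and 3.12% wholly lower. The 3 comparisons share libraries, since each group enters 2 of them, so a low isotype mean lowers the first and raises the second.

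**Figure D2:**
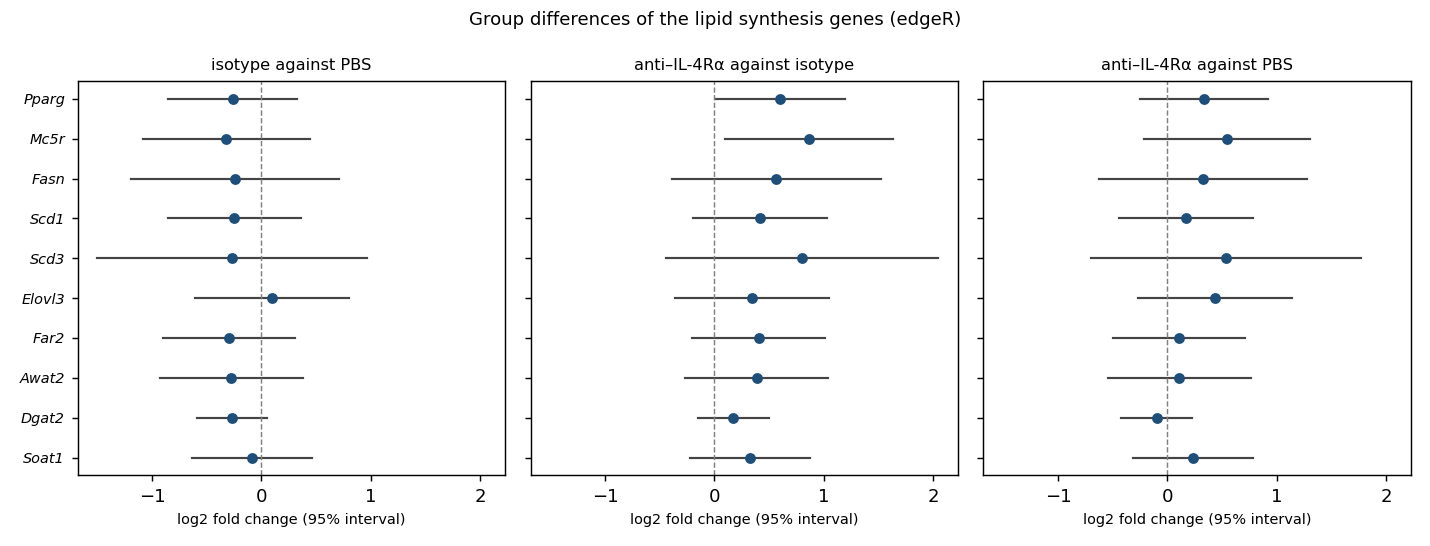
Log2 fold change (points, horizontal axis) with its 95% interval (lines) for each of the 10 genes in the 3 comparisons, from edgeR. All intervals include 0 except those of Pparg and Mc5r for anti–IL-4Rα against isotype, whose adjusted p-values were 0.143 and 0.110.

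All of the 10 genes but Dgat2 varied widely between libraries of the same group. The pooled SD of log2 CPM within groups was 0.95 for Scd3, 0.69 for Fasn, 0.60 for Mc5r, 0.56 for Elovl3, 0.53 for Awat2, 0.49 for Far2 and Scd1, 0.45 for Pparg, 0.44 for Soat1 and 0.25 for Dgat2, against a median of 0.18 over all genes tested. Only 3.30% of genes tested had a larger spread than Scd3, 10.5% a larger spread than Awat2, and 37.2% a larger spread than Dgat2. PBS replicate 2 was the lowest of its group in 10 of 10 genes and isotype replicate 2 in 9 of 10. PBS replicate 3 was the highest of its group in 6, isotype replicate 1 in 7 and anti–IL-4Rα replicate 2 in 6.

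Within groups the genes followed different libraries. On log2 CPM centered on the group means (15 libraries, which share depth and tissue makeup within a library, so that these are descriptions), the correlation with Awat2 was 0.99 for Far2 (Spearman's rho 0.98), 0.98 for Soat1 (rho 0.94), 0.96 for Dgat2 (rho 0.91) and 0.95 for Scd1 (rho 0.97). It was 0.80 for Elovl3, 0.69 for both Pparg and Scd3, 0.32 for Fasn and 0.25 for Mc5r (rho 0.78, 0.78, 0.76, 0.44 and 0.23). Leaving out isotype replicates 1 and 2, which lay farthest out, gave 0.98 for Far2, 0.96 for Soat1, 0.93 for Dgat2 and 0.91 for Scd1. With Scd3 as the reference, a choice made after its values were seen, Pparg (0.98), Elovl3 (0.96) and Fasn (0.90) were closest (rho 0.96, 0.93 and 0.85). Leaving out isotype replicate 4 and anti–IL-4Rα replicate 2, the farthest in Scd3, gave 0.97, 0.95 and 0.76, and raised the correlation of Awat2 with Scd3 from 0.69 to 0.89. Scd1 (0.94), Far2 (0.92), Soat1 (0.90) and Dgat2 (0.83) were then also closer to Scd3 than Fasn was, and Mc5r was at 0.39. The place of Fasn among the closest to Scd3 thus rested on those libraries.

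**Figure D3:**
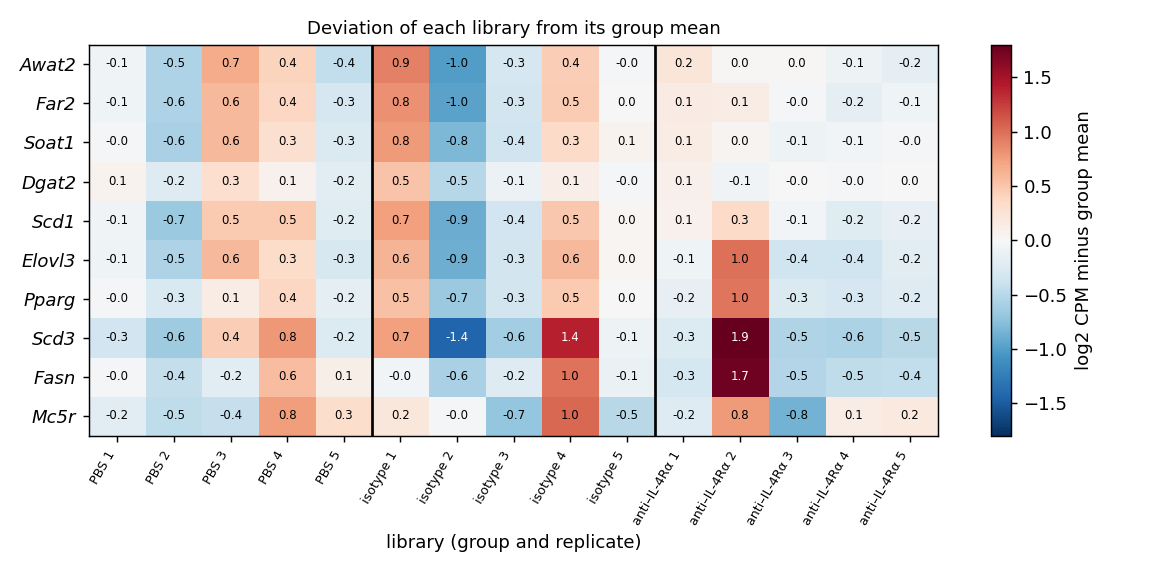
Deviation of each library from its group mean on the log2 CPM scale (color and printed value) for the 10 genes (rows) and 15 libraries (columns). The upper rows share the highs of PBS 3 and isotype 1 and the low of isotype 2, while Scd3 and Fasn are highest in isotype 4 and anti–IL-4Rα 2.

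The 10 genes most like Awat2 among 15489 compared, by the same correlation (0.990 to 0.995), were the predicted gene Gm6093, Elovl1 (an elongase), Scd4 (a desaturase), Acer2 (an alkaline ceramidase), Cyp4f39 (a fatty acid hydroxylase), Scgb1a1 (a secretoglobin), Pgrmc1 (a heme-binding membrane protein), Stard4 (a cholesterol carrier), Far2 and Pitx1 (a transcription factor). Among those most like Scd3 (0.98 to 0.99) were Decr2 (an enzyme of peroxisomal fatty acid oxidation), 5730409E04Rik, Plin2 (a lipid droplet coat protein), Tlcd2, Slc5a6 (a vitamin transporter), Pex19 (a peroxisome assembly factor), Hsd17b12 (an enzyme of fatty acid elongation), Psapl1 and Pparg. A correlation over 0.9 was found with Awat2 for 206 genes (1.33%) and with Scd3 for 225 genes (1.45%).

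The ratio of Scd1 to Scd3 counts made the difference between libraries visible within a pair of paralogs. It was 32.1, 25.9, 26.8, 21.2 and 26.6 in PBS replicates 1 to 5, 30.0, 43.4, 36.5, 16.0 and 32.8 in the isotype group, and 32.5, 8.99, 36.5, 33.1 and 32.9 in the anti–IL-4Rα group. The lowest ratio of each group was in the library with the highest ether lipid and porphyrin gene sum, namely PBS replicate 4, isotype replicate 4 and anti–IL-4Rα replicate 2. The difference of the mean log2 ratio was 0.20 for isotype against PBS (exact permutation test, two-sided p = 0.484, adjusted p = 0.929 over 3 comparisons), -0.22 for anti–IL-4Rα against isotype (exact permutation p = 0.619, adjusted p = 0.929) and -0.02 for anti–IL-4Rα against PBS (exact permutation p = 1.0). Without anti–IL-4Rα replicate 2 the last was 0.36 (exact permutation test, adjusted p = 0.0476 over 3 comparisons), with all 4 remaining libraries above all 5 PBS libraries. With PBS replicate 4 and isotype replicate 4 also left out, it was 0.28 (exact permutation test, adjusted p = 0.0857). There too every anti–IL-4Rα library left lay above every PBS library left. In both of these reduced fits the unadjusted p was the smallest that so few libraries allow. The rise of the adjusted p thus reflects fewer libraries and does not show that the groups came to overlap.

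**Figure D4:**
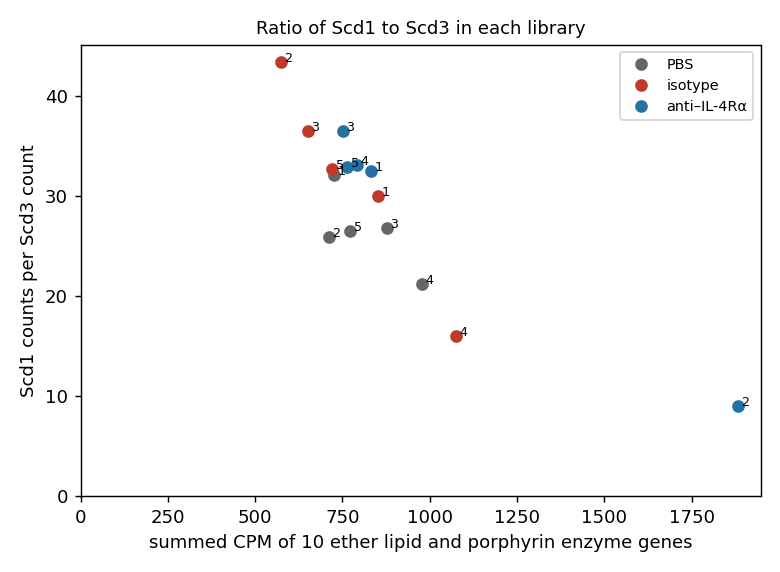
Scd1 counts per Scd3 count (vertical axis) against the summed CPM of 10 ether lipid and porphyrin enzyme genes (horizontal axis) in the 15 libraries, colored by group and numbered by replicate. The lowest ratios, 8.99 in anti–IL-4Rα 2 and 16.0 in isotype 4, are in the libraries with the highest sums, 1882 and 1076 CPM.

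The same libraries were high in other lipid genes. Elovl5, an elongase of polyunsaturated fatty acids, was at 3692 CPM in anti–IL-4Rα replicate 2 and at 70.1–83.3 CPM in the other 4 of its group, at 1177 CPM in isotype replicate 4 against 75.2–82.1 CPM, and at 883 CPM in PBS replicate 4 against 88.2–228 CPM. Mogat1, which makes diacylglycerol, was at 242, 71.0 and 46.3 CPM in the same 3 libraries and at 0.215–10.98 CPM in the other 12. Agps, which forms the ether bond of ether lipids, was at 469, 162 and 103 CPM in them and at 32.4–52.7 CPM in the other 12. Agps belongs to the 10 ether lipid and porphyrin genes whose sum was used to pick these 3 libraries. Highs of those 10 genes there follow from that choice. The 10 genes were highest in anti–IL-4Rα replicate 2 for 9, in isotype replicate 4 for 7 and in PBS replicate 4 for 7. Their part in the results for Scd3, Fasn, Elovl3 and Pparg was not tested. When the 3 libraries were left out together, 0 of 10 genes were called in any of the 3 comparisons. Over all genes that fit called 2109 for isotype against PBS, 1205 for anti–IL-4Rα against isotype and only 9 for anti–IL-4Rα against PBS, of 18755 tested, so the count of 0 says little for the last.

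In each group, the summed fat cell genes were lowest in the library where the wax ester genes Awat2 and Far2 were highest. The 10 white adipocyte markers summed to 1516 CPM in PBS replicate 2, the lowest PBS library for every one of the 10 lipid synthesis genes, and to 515 CPM in PBS replicate 3, the highest for 6. Isotype replicate 1, the highest of its group for 7 of the 10 lipid synthesis genes, was the lowest for 10 of 10 adipocyte genes. In the anti–IL-4Rα group, replicate 1 was the highest for Awat2, Far2, Soat1 and Dgat2 and the lowest for 9 of 10 adipocyte genes (sum 755 CPM). Replicate 2 of that group was the highest for 9 of 10 adipocyte genes (sum 1468 CPM). It was also the highest for the other 6 of the 10 lipid synthesis genes. The median correlation of the adipocyte genes with Awat2 within groups was -0.74, with Fabp4 (a fatty acid carrier of fat cells) at -0.89 and Cfd (adipsin) at -0.85. By group the sums ran from 515 to 1516 CPM (PBS), 470.1 to 876 (isotype) and 755 to 1468 CPM (anti–IL-4Rα). In all 3 comparisons 0 of 10 adipocyte genes were called. The median log2 fold changes of the adipocyte genes were -0.56 for isotype against PBS, 0.69 for anti–IL-4Rα against isotype and 0.11 for anti–IL-4Rα against PBS. These had the same sign as the medians of the 10 lipid synthesis genes (-0.27, 0.41 and 0.28). In the same order, 17%, 14.9% and 3.74% of all genes tested were called. Other lists set these libraries apart too. PBS replicate 2 was also the highest of its group for 7 of 7 muscle and 7 of 7 hair follicle genes. Isotype replicate 2, the lowest for 9 of the 10 lipid synthesis genes, had an adipocyte sum of 800 CPM, inside the range of its group. It was the highest for 7 of 7 hair follicle genes and the lowest for 7 of 7 muscle genes. The part of fat cells, muscle or hair follicles in the lipid synthesis genes' values was not tested.

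The rest of the lipid pathway was read from 6 lists with 89 genes, of which 87 were tested. For isotype against PBS 0 were called higher and 6 lower (6.90%, where 17% of all genes were called, 9.53% higher and 7.49% lower). For anti–IL-4Rα against isotype 4 were called higher and 3 lower (8.05%, where 14.9% of all were called, 6.73% higher and 8.13% lower). For anti–IL-4Rα against PBS 0 were called higher and 2 lower (2.30%, where 3.74% of all were called, 2.29% higher and 1.45% lower). The median log2 fold changes over the 87 genes were -0.17, 0.25 and 0.04.

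Fatty acid synthesis and activation had 14 genes, led per kilobase by Acly (which makes cytosolic acetyl-CoA; 84.8 CPM per kb), Me1 (malic enzyme; 81.9) and Acsl5 (a fatty acid activating enzyme; 79.7), and 0 were called in any comparison. Of 18 elongation and desaturation genes, 17 were tested and 0 called. Elovl1 (500.4 CPM per kb), Elovl4 (493) and Scd4 (302) led that list. Of 12 genes for fatty alcohols, wax esters and acylglycerols, 11 were tested, led by Awat1 (203 CPM per kb), Agpat2 (an acyltransferase of phosphatidic acid synthesis; 35.8) and Far1 (the second fatty acyl reductase; 23.8). Gpam, the first enzyme of glycerolipid synthesis, rose with anti–IL-4Rα against isotype, from 79.9 ± 14.1 to 102 ± 3.53 CPM (n = 5 each; log2 fold change 0.36, SE 0.10, adjusted p = 0.0315 in edgeR), and stayed called in 8 of the 15 fits that left out 1 library (adjusted p of up to 0.0828 in the rest). Soat2, the other cholesterol acyltransferase, fell (log2 fold change -0.88, SE 0.28, adjusted p = 0.0494 in edgeR) at a level of under 1 CPM, and stayed called in 2 of those 15 fits, those without isotype replicate 1 or anti–IL-4Rα replicate 3 (up to 0.125 in the rest).

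Cholesterol synthesis and uptake had 15 genes, with the sterol synthesis enzymes Hmgcs1 (128 CPM per kb) and Msmo1 (84.4 CPM per kb) among the highest. Fdft1 (squalene synthase) fell for isotype against PBS (log2 fold change -0.20, SE 0.06, adjusted p = 0.0312 in edgeR; called in 8 of 15 fits with 1 library left out). Mvk (mevalonate kinase) fell with anti–IL-4Rα against PBS (-0.22, SE 0.05, adjusted p = 0.0426 in edgeR; 5 of 15). In these fits with 1 library left out the adjusted p rose to at most 0.0960.

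Of 18 lipid regulators, led by Cebpa (121 CPM per kb), Cebpb (87.6) and Rxra (49.2), Mlxipl, a glucose-responsive activator of lipogenic genes, was at 22.6 ± 5.29 CPM after PBS challenge and fell to 14.2 ± 1.94 CPM with OVA and isotype control (log2 fold change -0.67, SE 0.15, adjusted p = 0.0113 in edgeR), and was called in 15 of 15 fits with 1 library left out. Ppargc1a, a coactivator of oxidative metabolism, fell (-0.48, SE 0.13, adjusted p = 0.0261 in edgeR; 11 of 15, up to adjusted p = 0.0648 without PBS replicates 2 or 5 or isotype replicates 2 or 3). With anti–IL-4Rα against isotype, Ppard, a nuclear receptor related to Pparg, fell from 101 ± 6.22 to 83.0 ± 5.25 CPM (-0.28, SE 0.06, adjusted p = 0.0101 in edgeR; 15 of 15).

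Lipid droplet genes (12, led by Cidea at 202 CPM per kb, Plin2 at 165 and Pnpla2 at 50.9) held the triglyceride lipases Pnpla2 and Pnpla5, which moved down and back up. Pnpla5 was at 54.8, 48.1, 40.5, 52.8 and 57.2 CPM with PBS challenge, 36.6, 27.5, 32.6, 29.1 and 31.5 CPM in the isotype group and 29.3, 39.4, 44.8, 47.4 and 48.4 CPM in the anti–IL-4Rα group. Every isotype library was below every PBS library. The fall was -0.69 (SE 0.13, adjusted p = 0.00502 in edgeR; 15 of 15 fits with 1 library left out), and the rise with anti–IL-4Rα was 0.41 (SE 0.13, adjusted p = 0.0486 in edgeR; 3 of 15, up to adjusted p = 0.115). Pnpla2 fell from 169 ± 16.1 to 125 ± 14.3 CPM (-0.43, SE 0.10, adjusted p = 0.0151 in edgeR; 15 of 15) and was at 167 ± 24.9 CPM with anti–IL-4Rα (0.42, SE 0.10, adjusted p = 0.0217 in edgeR; 13 of 15, up to adjusted p = 0.0599 without isotype replicates 2 or 3). Both comparisons share the isotype libraries. Fitm1, a droplet protein of muscle, fell for isotype against PBS (-0.65, SE 0.18, adjusted p = 0.0277 in edgeR; 11 of 15, up to adjusted p = 0.0729 without PBS replicates 2 or 5 or isotype replicates 2 or 4). Of the 7 skeletal muscle markers 6 were also called lower in that comparison, where 7.49% of all genes tested were. The list median was -0.74, with sums of 5992–10485 (PBS) and 3596–5467 CPM (isotype). Ppargc1a, Pnpla2 and Mlxipl are also expressed outside glands, and the part of muscle in their values was not tested.

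Of the 8 meibomian and sebaceous markers 0 were called in any comparison. Of all genes tested, 17% were called for isotype against PBS, 14.9% for anti–IL-4Rα against isotype and 3.74% for anti–IL-4Rα against PBS. Beside these shares a count of 0 of 8 says little. The list medians were -0.23, 0.41 and 0.18 on the log2 scale, in the same order. The median correlation with Awat2 within groups was 0.88 over these 8 genes, with Awat1 at 0.99, Elovl4 at 0.98, Cidea at 0.95, Mgst1 at 0.90, Krt79 at 0.87 and Plin2 at 0.74. Dgat2l6, at 0.075, and Fa2h, at -0.26, did not follow Awat2. Their lowest library was PBS replicate 2 for 6 of 8 genes in the PBS group and isotype replicate 2 for 7 of 8 in the isotype group, the libraries that were also lowest in the lipid synthesis genes.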

How the data were processed

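RNA-Seq was performed by the authors on conjunctival tissue (polyA-selected, paired-end). Reads were aligned in Omicsoft Array Studio to mouse B38, keeping unique alignments, with the Ensembl R100 gene model. The methods name the Array Studio function Report Gene/Transcript Counts for the conversion to FPKM. The software version, how reads were assigned to genes and whether strand was used are not given in the sources used here. The values deposited by the authors are each an estimated count (expected count) per gene, made from those alignments without normalization or pooling; 6222 to 8005 genes per library were not whole, and all were rounded. The methods mention outliers but do not name them, and all 15 libraries were kept.

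The 19006 genes reaching 10 counts in 5 or more libraries were fitted in edgeR 4.0.16 (R 4.3.3; TMM, quasi-likelihood, 1 model of 3 groups, two-sided, Benjamini-Hochberg over all genes tested; called at an adjusted p under 0.05). Log2 CPM used a prior count of 2. Single ratios were compared by exact permutation over 252 splits, and over fewer splits where libraries were left out. Names, positions and exon lengths came from GENCODE M21 (55227 identifiers matched, 260 not). Alternatives were upper quartile and DESeq2 size factors, DESeq2 1.42.0, limma 3.58.1 (voom with quality weights; log2(FPKM + 1)), other filters, fits to the groups compared, a replicate block and leaving out each library. Scripts were tested on simulated data. Tables and plots used Python 3.11.15, pandas 2.3.3, scipy 1.17.1 and matplotlib 3.10.9.

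The 10 genes and the lists were chosen with earlier results of these data known. Of each list, the genes named were the up to 4 called with the largest change and the 3 highest per kilobase; genes most like Awat2 were taken by correlation at a mean of at least 1 CPM. Some genes that this rule would name are not reported here. Other names were chosen after values were seen. The lists, beside the 6 pathway lists, were markers of meibomian and sebaceous gland, adipocytes, Harderian gland, lacrimal acini, muscle, hair follicle, epithelium and macrophages. Library totals ran from 48622246 to 87745024 counts, and intervals cover the spread between libraries.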

Additional observations from a re-analysis of the deposited data

Results flagged for a closer look

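Of 33 sets of 5 values (the 10 genes and the Scd1 to Scd3 ratio in 3 groups) 6 had 1 library whose gap to the nearest other exceeded 0.71 of the group's range (Dixon's criterion). Chance gives this in about 1 of 20 sets if values are normally distributed. CPM and ratios were used without a log transform, and their distribution was not tested, so that rate may not hold here. All but 1 of the 6 were anti–IL-4Rα replicate 2. There Elovl3 was at 839.8 CPM (others 329.9–400.4), Scd3 at 1173 CPM (215–269), Fasn at 3116 CPM (644–746) and Pparg at 61.4 CPM (25.6–28.5), and the ratio of Scd1 to Scd3 was 8.99 (32.5–36.5). The sixth was Fasn in isotype replicate 4, at 1455 CPM (489.6–711). The sets share libraries and are not independent.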

How the results depend on the processing

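Under 10 alternatives 0 of the 10 genes were called in each comparison. Leaving out each library in turn gave 0 to 1 called for isotype against PBS, 0 to 1 for anti–IL-4Rα against isotype and 0 to 0 for anti–IL-4Rα against PBS. Counts over all genes moved more, and where not stated the cause was not tested. For isotype against PBS (3235 genes) the replicate block gave 2115 and leaving out together the 3 libraries highest in ether lipid and porphyrin genes, an alternative chosen after seeing the data, gave 2109; leaving out 1 library gave 1863 to 3937. For anti–IL-4Rα against isotype (2826) no filter gave 1748, a fit to only these groups 675, the replicate block 1859, the 3 libraries left out 1205, and 1 library left out 882 to 4206. For anti–IL-4Rα against PBS (711) DESeq2 gave 1966, voom 2318, no filter 349, the replicate block 312, the 3 libraries left out 9, and 1 library left out 82 to 2029. The replicate number is only a name here: same-numbered libraries had a median correlation of deviations of 0.0013, 4 of 15 pairs were over 0.1, and 4 of 15 libraries correlated best with their own number. For anti–IL-4Rα against PBS, voom gave log2 fold changes of -0.069 for Scd3 and -0.22 for Fasn, and without the 3 libraries they were -0.080 and -0.28; the Scd1 to Scd3 log2 ratio then was 0.28. With 1 library left out the ratios ran from 0.07 to 0.43, -0.45 to 0.16 and -0.15 to 0.36 in the 3 comparisons. Directions also turned, without a call, for Elovl3 (-0.070 to 0.26) and Soat1 (-0.32 to 0.082) for isotype against PBS, for Elovl3 (-0.0031 to 0.50), Scd3 (-0.051 to 1.27) and Fasn (-0.20 to 0.90) for anti–IL-4Rα against isotype, and for Awat2 (-0.012 to 0.31), Far2 (-0.013 to 0.27), Scd3 (-0.32 to 0.77) and Fasn (-0.45 to 0.49) for anti–IL-4Rα against PBS. The rest of the 10 genes kept their direction under all of these alternatives. The lowest count of any of the 10 genes was 590, for Mc5r, so the spread between libraries limited the precision more than the depth.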

Other observations

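Other tissue and cell lists held genes that were called in these comparisons. Of all genes tested, 17% were called for isotype against PBS, 14.9% for anti–IL-4Rα against isotype and 3.74% for anti–IL-4Rα against PBS. Macrophage markers were called for isotype against PBS in 3 of 6 genes higher and 1 lower, beside 9.53% and 7.49% of all genes. Mrc1, the mannose receptor of tissue macrophages, rose from 56.9 ± 4.53 to 152 ± 64.7 CPM (log2 fold change 1.42, SE 0.23, adjusted p = 0.00216 in edgeR) and fell with anti–IL-4Rα to 75.4 ± 9.05 CPM (-1.01, SE 0.23, adjusted p = 0.0150 in edgeR). Adgre1 (1.04, adjusted p = 0.00455 in edgeR) and Csf1r (0.75, adjusted p = 0.0125 in edgeR) rose, and Marco, a scavenger receptor, fell from 1.06 ± 0.727 to 0.102 ± 0.0828 CPM (adjusted p = 0.00599 in edgeR). Krt14, a keratin of basal epithelium, rose from 3182 ± 277 to 4664 ± 659.8 CPM (0.55, SE 0.11, adjusted p = 0.00693 in edgeR) and fell with anti–IL-4Rα to 2775 ± 320.2 CPM (-0.75, SE 0.11, adjusted p = 0.00243 in edgeR). Of the 7 hair follicle genes 0 were called, with list medians of 1.53 for isotype against PBS, -1.45 for anti–IL-4Rα against isotype and 0.081 for anti–IL-4Rα against PBS, and of the 8 lacrimal acinar genes, whose list medians were 0.24 for isotype against PBS, 2.70 for anti–IL-4Rα against isotype and 2.97 for anti–IL-4Rα against PBS, only the water channel Aqp5 was called, higher with anti–IL-4Rα against isotype (0.48; called in 3 of 15 fits with 1 library left out) and against PBS (0.61; 6 of 15). Pax6, a transcription factor of eye epithelium, was called higher with anti–IL-4Rα against isotype (0.43; 6 of 15). Lyz2 was called higher (0.72; 8 of 15) and Marco lower (15 of 15) with anti–IL-4Rα against PBS. Of the 10 ether lipid and porphyrin genes 1, Fech (ferrochelatase), was called, lower for isotype against PBS (-0.27). These comparisons share libraries.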
